A study of Homo sapiens with 6 samples.

Results

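The 10 genes of myoblast adhesion and fusion were followed in human dermal fibroblasts driven towards muscle by the transcription factor MyoD. The members were chosen by symbol: MYMK (chromosome 9), CDH15 (chromosome 16), CDH2 (chromosome 18), NCAM1, CDON and JAM3 (chromosome 11), BOC (chromosome 3), NEO1 (chromosome 15), JAM2 (chromosome 21) and ADAM12 (chromosome 10). All 10 had rows in the count table, 22 RefSeq transcript rows in total, which were summed per symbol to give 10 of 23540 genes. Polyadenylated RNA was sequenced from 3 groups of 2 libraries. VP64-MyoD cells carried a Tet-ON lentivirus for mouse MyoD with the VP64 activation domain joined to its N-terminus, and WT-MyoD cells carried the same vector for unmodified mouse MyoD. In both, a red fluorescent reporter was co-expressed, transduced cells were selected with 1 µg/mL puromycin, grown to confluence, and harvested after 10 days in 3 µg/mL doxycycline. Untreated cells were the third group. Whether they had been transduced, selected, given doxycycline or kept for the same time is not given in the sources used here, so any difference from untreated cells includes those conditions. All libraries came from 1 primary dermal fibroblast line. The labels call the replicates biological duplicates, but nothing says how separate the cultures were. P-values therefore rest on the spread between these samples, estimated with help from other genes, and how much of it is technical is not known.

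Myoblasts leave the cell cycle, recognise each other by adhesion molecules, align and fuse into multinucleated fibres. Classical cadherins hold the membranes together through catenins, immunoglobulin-family proteins such as NCAM and the junctional adhesion molecules add further contacts, and the receptors CDON, BOC and neogenin bind cadherins or secreted ligands at those contacts and signal towards differentiation. Myomaker, the product of MYMK, is a muscle membrane protein needed for the lipid bilayers to merge.

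Library totals lay between 40997586 and 53804224 counts, and every count was even, so 2 counts were taken as 1 read pair. The mouse Myod1 transgene stood at 116 and 97.2 CPM in VP64-MyoD libraries, 762 and 1021 CPM in WT-MyoD libraries, and 5.13 and 1.05 CPM in untreated cells (CPM, counts scaled to library size with TMM factors, as for all CPM values here). Transgene RNA was thus lower in VP64-MyoD than in WT-MyoD cells, with a log2 difference of -3.06 (SE 0.24), and the VP64 domain and the amount of transgene cannot be told apart in any comparison of the forms. Summed levels of 10 skeletal muscle markers ran from 5517 to 6322 CPM with VP64-MyoD, 1137 to 1151 CPM with WT-MyoD and 17.7 to 18.9 CPM in untreated cells. Sums of 10 fibroblast markers ran from 28844 to 31259 CPM with VP64-MyoD, 27585 to 31637 CPM with WT-MyoD and 43494 to 45796 CPM in untreated cells, so fibroblast RNA was present in every group. The collagen genes COL1A1, COL1A2 and COL3A1 made up most of each fibroblast sum, so these sums say little of the other markers. Taken singly, 7 of the 10 fibroblast markers were lower in VP64-MyoD than in WT-MyoD cells. Only COL1A1 was higher, and 2 were not called (calls are defined below). Log2 differences between the forms ran from -2.49 for ELN to 0.55 for COL1A1. In such bulk samples a smaller number of expressing cells and less RNA per cell cannot be told apart.

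With VP64-MyoD, 6 of the 10 rose and 4 fell relative to untreated cells; of all 15289 tested genes, 63.6% were called, 33.3% higher and 30.3% lower. With WT-MyoD, 8 rose and 2 fell; of all tested genes, 48.5% were called, 26% higher and 22.6% lower. Against WT-MyoD, VP64-MyoD had 5 of the 10 higher, 3 lower and 2 not called, and of all tested genes 57.2% were called, 28.7% higher and 28.4% lower. The median log2 fold change over the 10 genes was 0.89 for VP64-MyoD against untreated (0.03 over all genes tested), 1.74 for WT-MyoD against untreated (0.00 over all genes) and 0.48 for VP64-MyoD against WT-MyoD (0.02 over all genes). A call is an edgeR quasi-likelihood test with Benjamini-Hochberg adjusted p under 0.05 over all genes. Both comparisons with untreated cells share the same 2 untreated libraries, and all 10 genes passed the filter on low counts. With 2 libraries per group, groups can fail to overlap without a call. The partner genes CTNND1 and BNIP2, called in none of the 3 comparisons, overlapped in none of them. The share of all genes without overlap was not counted.

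**Figure D1:**
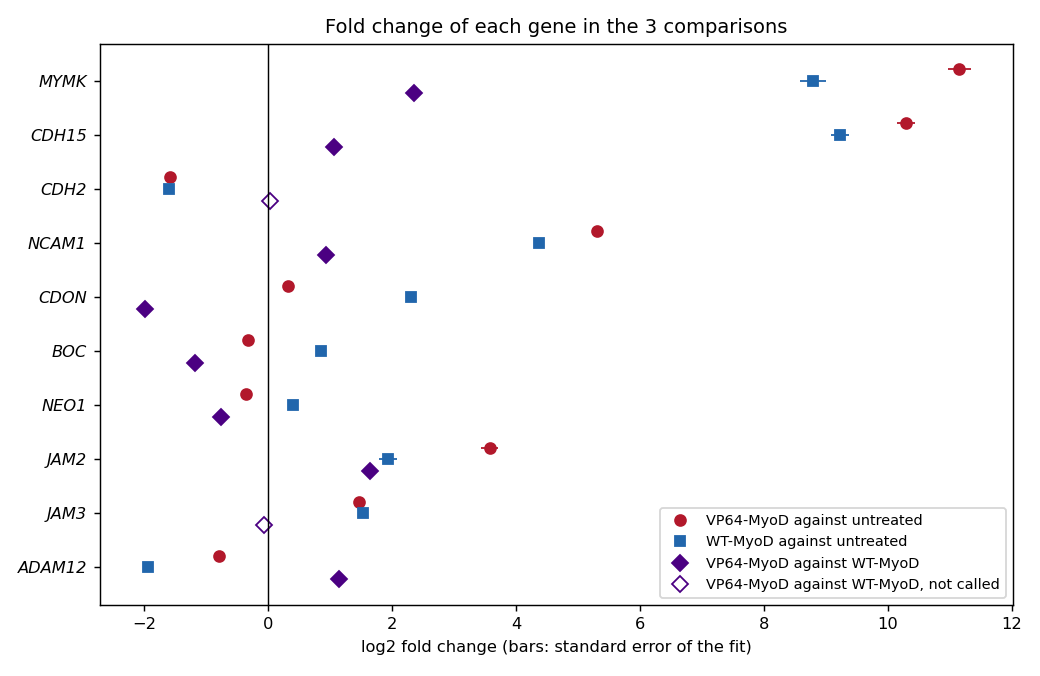
Log2 fold change of each gene in the 3 comparisons, with bars for the standard error of the fit; open symbols are not called. Against untreated cells, MYMK and CDH15 lie farthest to the right and CDH2 and ADAM12 lie left of 0 with both MyoD forms, and CDON, BOC and NEO1 are the 3 genes lower in VP64-MyoD than in WT-MyoD cells.

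MYMK, the gene of the muscle-specific fusion protein, was higher with both forms, and more so with VP64-MyoD. It stood at 221 and 182 CPM in VP64-MyoD libraries, 41.8 and 36.6 CPM in WT-MyoD libraries, and 0.0807 and 0.0915 CPM in untreated cells. The 3 groups did not overlap. The untreated values rest on 4 counts in each library, or 4 read pairs over the group. Over read pairs, the VP64-MyoD to untreated ratio was 2334 (95% interval from 911 to 8569), and the WT-MyoD to untreated ratio was 462 (from 180.1 to 1697); the exact binomial intervals cover counting error only. The fitted log2 fold change was 11.15 (SE 0.19, edgeR adjusted p = 1.4e-16) with VP64-MyoD and 8.80 (SE 0.21, edgeR adjusted p = 1.5e-14) with WT-MyoD. MYMK was also higher in VP64-MyoD than in WT-MyoD cells, by 2.36 on the log2 scale or 5.13-fold (SE 0.09, edgeR adjusted p = 5.2e-12).

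**Figure D2:**
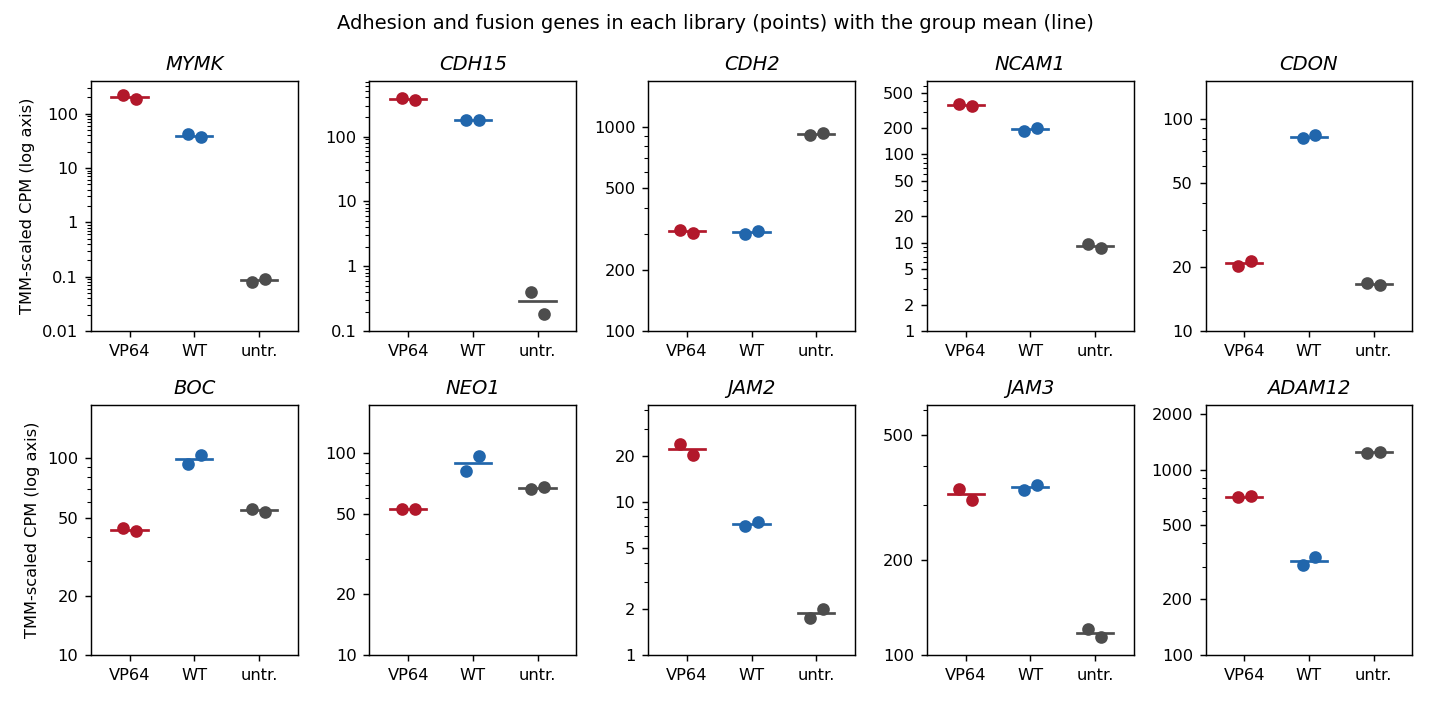
TMM-scaled CPM (log axis, its range set per gene) of the 10 genes in each library, with points for libraries and lines for group means of VP64-MyoD (VP64), WT-MyoD (WT) and untreated (untr.) cells. MYMK, CDH15, NCAM1 and JAM2 step down across the groups in that order, whereas CDON, BOC and NEO1 are highest with WT-MyoD and CDH2 and ADAM12 are highest in untreated cells.

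The classical cadherins moved in opposite directions. CDH15, or M-cadherin, the cadherin of myoblasts and satellite cells, stood at 398 and 361 CPM with VP64-MyoD, 182 CPM in each WT-MyoD library, and 0.404 and 0.183 CPM in untreated cells. Its log2 fold change over untreated was 10.29 (SE 0.14, edgeR adjusted p = 3.2e-17) with VP64-MyoD and 9.23 (SE 0.14, edgeR adjusted p = 4.6e-16) with WT-MyoD. The size rests on 20 and 8 untreated counts: without untreated replicate 1, the library with more counts of both CDH15 and the transgene (254 against 46), the values became 10.995 with VP64-MyoD and 9.93 with WT-MyoD, and without untreated replicate 2 they became 9.87 and 8.81 in the same order. VP64-MyoD exceeded WT-MyoD by 1.06 on the log2 scale, or 2.09-fold (SE 0.07, edgeR adjusted p = 7.6e-09).

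CDH2, or N-cadherin, which fibroblasts as well as muscle and nerve cells carry, was lower with both forms. It stood at 314 and 303 CPM in VP64-MyoD libraries, 297 and 310.4 CPM in WT-MyoD libraries, and 914 and 928 CPM in untreated cells. Both MyoD groups lay far under untreated cells and overlapped each other. CDH2 fell by 1.58 on the log2 scale with VP64-MyoD (SE 0.06, edgeR adjusted p = 5.8e-12) and by 1.60 with WT-MyoD (SE 0.06, edgeR adjusted p = 6.9e-12). Between the forms the log2 difference was 0.02 (95% interval from -0.12 to 0.16, edgeR adjusted p = 0.79).

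NCAM1, the neural cell adhesion molecule, which is also carried by regenerating and newly formed muscle fibres, stood at 376 and 356 CPM in VP64-MyoD libraries, 186 and 197 CPM in WT-MyoD libraries, and 9.65 and 8.78 CPM in untreated cells. The groups did not overlap. The log2 fold change over untreated was 5.31 (SE 0.08, edgeR adjusted p = 5.4e-17) with VP64-MyoD and 4.37 (SE 0.08, edgeR adjusted p = 7.0e-16) with WT-MyoD, and VP64-MyoD was higher than WT-MyoD by 0.94 (SE 0.06, edgeR adjusted p = 6.5e-09). NCAM1 is a neuronal gene too. The summed level of 10 neuron markers ran from 122 to 127 CPM with VP64-MyoD, 74.7 to 81.5 CPM with WT-MyoD and 38.65 to 39.3 CPM in untreated cells, with ELAVL4 at 0 in all 3 groups and SNAP25 at 0 with VP64-MyoD and in untreated cells. Of the 5 neuron markers tested, 5 rose with VP64-MyoD and 3 with WT-MyoD. STMN2 averaged 63.6 CPM with VP64-MyoD, 9.43 CPM with WT-MyoD and 3.72 CPM in untreated cells, and SYT1 averaged 7.50 CPM with VP64-MyoD, 3.68 CPM with WT-MyoD and 0.0202 CPM in untreated cells. TUBB3 averaged 52.1 CPM with VP64-MyoD, 64.6 CPM with WT-MyoD and 35.1 CPM in untreated cells. Between the forms, 4 of the 5 were higher in VP64-MyoD cells, whereas TUBB3 was lower. The part of such transcripts in the NCAM1 level was not tested. The antisense gene NCAM1-AS1, which shares 552 of 12737 exon bases, stood at 1.20 CPM with VP64-MyoD, 0.527 CPM with WT-MyoD and 0.0229 CPM in untreated cells.

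NCAM1 also differed between groups in which of its 5 transcript rows held the counts. The gene gives a glycolipid-anchored protein from an earlier coding end and transmembrane proteins from a later one. By the GENCODE transcripts paired with the rows, 2 rows ended at the earlier and 3 at the later coding end, shown here because the shares below separate these ends. Both are read 5′ to 3′ on the plus strand of GRCh38, from the first base of the last coding exon through the stop codon, which is in capitals.
NCAM1 earlier end, chr11:113262846-113262925: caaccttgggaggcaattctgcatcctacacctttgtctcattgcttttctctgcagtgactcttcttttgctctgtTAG
NCAM1 later end, chr11:113275267-113275387: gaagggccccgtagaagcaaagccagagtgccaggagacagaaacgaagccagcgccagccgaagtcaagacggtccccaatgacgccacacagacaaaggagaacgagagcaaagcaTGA

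The rows with the earlier end held 40.2% (95% Wilson interval 39.1 to 41.2) and 38.9% (37.9 to 39.9) of the gene's counts with VP64-MyoD. They held 33.0% (31.7 to 34.2) and 33.3% (31.8 to 34.7) with WT-MyoD, and 28.9% (23.5 to 34.9) and 27.1% (21.3 to 33.8) in untreated cells. VP64-MyoD libraries lay above the other 4, while the intervals of WT-MyoD and untreated libraries overlapped; the untreated shares rest on 239 and 192 read pairs. Rows that received reads evenly would give 40.0%. How reads common to several isoforms were placed is not given in the sources used here, so these are shares of deposited counts and not of RNA molecules, and they were given no test.

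**Figure D3:**
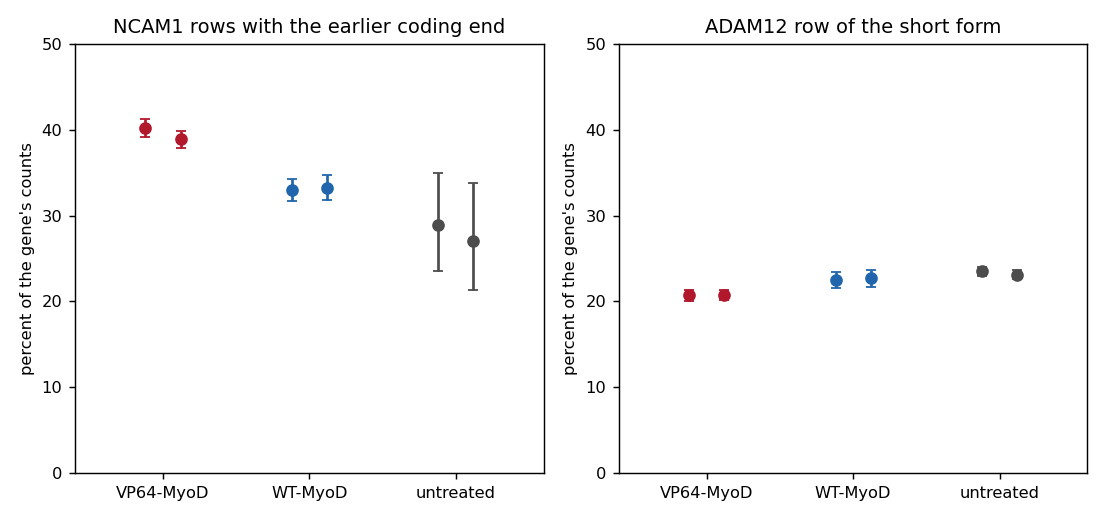
Percent of a gene's counts held by the 2 NCAM1 rows with the earlier coding end (left panel) and by the ADAM12 row of the short form (right panel) in each library, with 95% Wilson intervals on read pairs. The NCAM1 share lies near 40% with VP64-MyoD, 33% with WT-MyoD and 28% in untreated cells, whereas the ADAM12 share stays between 20.7% and 23.5%.

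The junctional adhesion molecules JAM-B and JAM-C, which bind each other across cell contacts and are needed for fusion of fast muscle precursors in zebrafish, were both raised. JAM2, for JAM-B, stood at 24.2 and 20.5 CPM in VP64-MyoD libraries, 6.96 and 7.39 CPM in WT-MyoD libraries, and 1.74 and 2.01 CPM in untreated cells, with no overlap of groups. It rose by 3.58 on the log2 scale with VP64-MyoD (SE 0.14, edgeR adjusted p = 2.2e-12) and by 1.94 with WT-MyoD (SE 0.15, edgeR adjusted p = 1.4e-08), and VP64-MyoD exceeded WT-MyoD by 1.64 (SE 0.11, edgeR adjusted p = 6.0e-09). JAM3, for JAM-C, stood at 338 and 310.5 CPM in VP64-MyoD libraries, 336 and 347 CPM in WT-MyoD libraries, and 121 and 114 CPM in untreated cells. JAM3 rose 2.76-fold with VP64-MyoD (1.46 on the log2 scale, SE 0.07, edgeR adjusted p = 2.6e-11) and 2.90-fold with WT-MyoD (1.54 on the log2 scale, SE 0.07, edgeR adjusted p = 1.9e-11). The forms overlapped for JAM3, with a log2 difference of -0.07 (95% interval from -0.22 to 0.07, edgeR adjusted p = 0.36). Both genes are also known from endothelium. The summed level of 10 endothelial markers ran from 36.6 to 40.5 CPM with VP64-MyoD, 40.1 to 42.5 CPM with WT-MyoD and 30.5 to 32.0 CPM in untreated cells; its part in the JAM values was not tested. Of the 9 endothelial markers tested, 5 rose and 2 fell with VP64-MyoD, and 4 rose and 2 fell with WT-MyoD. CLDN5 averaged 9.35 CPM in VP64-MyoD cells and 0.825 CPM in WT-MyoD cells and was at 0 in untreated cells, while EMCN averaged 0.671 CPM with VP64-MyoD, 19.4 CPM with WT-MyoD and 1.08 CPM in untreated cells. NCAPD3, a cell division gene on the opposite strand, shares 465 of the 5451 annotated exon bases of JAM3. It stood at 46.6 ± 2.2 CPM with VP64-MyoD, 66.9 ± 2.5 CPM with WT-MyoD and 33.9 ± 0.43 CPM in untreated cells (SD, n = 2 each), and reads of the overlap cannot be assigned to a strand. ATP5PF, also on the opposite strand, shares 58 of the 5933 annotated exon bases of JAM2. ATP5PF averaged 20.5 CPM with VP64-MyoD, 14.5 CPM with WT-MyoD and 14.4 CPM in untreated cells. Its part in the JAM2 counts was not tested.

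The related receptors CDON, BOC and NEO1 were each highest with WT-MyoD and lower in VP64-MyoD than in WT-MyoD cells. Of all tested genes, 28.4% were called lower in that comparison. By the Euclidean distance between patterns (defined below), the receptors did not form a group apart. BOC lay at 0.51 from NEO1 and 1.42 from CDON, but NEO1 was nearer to JAM3 (1.83) than to CDON (1.90). CDON, a receptor that couples cadherin contact to myogenic signalling, stood at 20.4 and 21.3 CPM in VP64-MyoD libraries, 81.1 and 83.4 CPM in WT-MyoD libraries, and 16.8 and 16.5 CPM in untreated cells. It rose by 0.32 on the log2 scale with VP64-MyoD (SE 0.07, edgeR adjusted p = 0.0014) and by 2.30 with WT-MyoD (SE 0.07, edgeR adjusted p = 3.3e-13). BOC, its binding partner and a coreceptor for hedgehog ligands, stood at 44.0 and 42.9 CPM in VP64-MyoD libraries, 93.4 and 104 CPM in WT-MyoD libraries, and 55.6 and 53.5 CPM in untreated cells. BOC fell by 0.33 with VP64-MyoD (SE 0.07, edgeR adjusted p = 7.0e-04) and rose by 0.86 with WT-MyoD (SE 0.07, edgeR adjusted p = 2.9e-08).

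NEO1, for neogenin, a receptor of netrins and repulsive guidance molecules that also binds CDON, stood at 52.9 and 52.7 CPM in VP64-MyoD libraries, 81.6 and 96.9 CPM in WT-MyoD libraries, and 66.9 and 67.7 CPM in untreated cells. It fell by 0.35 on the log2 scale with VP64-MyoD (SE 0.08, edgeR adjusted p = 8.5e-04) and rose by 0.41 with WT-MyoD (SE 0.08, edgeR adjusted p = 3.2e-04). VP64-MyoD against WT-MyoD gave log2 fold changes of -1.98 for CDON (SE 0.07, edgeR adjusted p = 2.4e-12), -1.18 for BOC (SE 0.07, edgeR adjusted p = 8.2e-10) and -0.76 for NEO1 (SE 0.08, edgeR adjusted p = 5.0e-07). Libraries of the 3 groups did not overlap for any of these receptors. VSIG10L2 on the opposite strand shares 2831 of 10600 annotated exon bases of CDON and was not measured here, so its reads were not told apart from those of CDON. CFAP44, which shares 513 of 10330 exon bases of BOC, stood between 3.66 and 4.30 CPM in the group means.

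The 3 receptor promoters are shown because all 3 genes were highest with WT-MyoD, although against untreated cells VP64-MyoD had CDON higher and BOC and NEO1 lower. Each runs 5′ to 3′ on the strand of its gene, from 250 bases before to 50 after the annotated start in RefSeq (GRCh38.p14). Capitals mark CANNTG, the E-box, the sequence that factors of the MyoD family recognise on either strand, since its reverse complement has the same form.
CDON promoter, chr11:126063252-126063551, minus strand: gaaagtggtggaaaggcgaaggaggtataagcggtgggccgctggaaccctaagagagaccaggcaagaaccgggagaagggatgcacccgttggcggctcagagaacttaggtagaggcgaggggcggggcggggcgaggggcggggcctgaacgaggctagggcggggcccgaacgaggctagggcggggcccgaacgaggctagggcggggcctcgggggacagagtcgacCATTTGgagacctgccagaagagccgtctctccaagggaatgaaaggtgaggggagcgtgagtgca
BOC promoter, chr3:113211866-113212165, plus strand: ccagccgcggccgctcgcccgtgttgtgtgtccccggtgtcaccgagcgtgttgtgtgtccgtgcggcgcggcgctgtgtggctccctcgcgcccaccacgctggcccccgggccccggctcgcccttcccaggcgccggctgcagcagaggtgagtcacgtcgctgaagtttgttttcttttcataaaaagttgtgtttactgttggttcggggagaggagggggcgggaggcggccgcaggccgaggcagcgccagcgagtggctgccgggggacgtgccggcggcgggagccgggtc
NEO1 promoter, chr15:73051652-73051951, plus strand: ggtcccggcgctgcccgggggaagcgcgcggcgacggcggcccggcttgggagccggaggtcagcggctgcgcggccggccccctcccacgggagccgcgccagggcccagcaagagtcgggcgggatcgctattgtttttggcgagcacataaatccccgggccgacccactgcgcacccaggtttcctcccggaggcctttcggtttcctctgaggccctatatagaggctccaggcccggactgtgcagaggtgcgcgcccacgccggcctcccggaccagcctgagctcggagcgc

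The CDON window held 1 E-box, CATTTG, and the BOC and NEO1 windows held 0. RefSeq windows were given for 5 of the 10 genes, the other 2 being those of CDH2 and ADAM12, and 2 of the 5 held CANNTG, against 68.7% of 35116 promoter windows of the same length. The sequence CAGCTG, a subset of CANNTG, was in 0 of the 5, against 17.9% of all windows, and CACCTG or its reverse complement CAGGTG was in 0 of the 5, against 20.6%. These are matches of letters in a short window and say nothing of binding there or elsewhere. No window was given for MYMK, CDH15, NCAM1, JAM2 or JAM3, which all rose with both forms, so the matches do not cover them.

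ADAM12, or meltrin alpha, a membrane protease with a disintegrin domain that promotes myoblast fusion in culture, fell with both forms. It stood at 709 and 719 CPM in VP64-MyoD libraries, 307 and 338 CPM in WT-MyoD libraries, and 1236 and 1244 CPM in untreated cells. The groups did not overlap. ADAM12 fell by 0.80 on the log2 scale with VP64-MyoD (SE 0.07, edgeR adjusted p = 5.4e-08) and by 1.94 with WT-MyoD (SE 0.07, edgeR adjusted p = 1.8e-12). It was therefore higher in VP64-MyoD than in WT-MyoD cells, by 1.15 or 2.21-fold (SE 0.07, edgeR adjusted p = 1.2e-09).

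ADAM12 has a long membrane form and a short secreted form with different coding ends. These ends are shown because the 2 transcript rows differ there; both lie on the minus strand of chromosome 10 in GRCh38 and run 5′ to 3′ from the first base of the last coding exon, with the stop codon in capitals.
ADAM12 long form end, chr10:126017279-126017339: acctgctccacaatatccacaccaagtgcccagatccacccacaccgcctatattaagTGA
ADAM12 short form end, chr10:126042132-126042235: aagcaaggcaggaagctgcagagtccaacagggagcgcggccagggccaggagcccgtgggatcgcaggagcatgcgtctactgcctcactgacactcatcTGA

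The short-form row held 20.7% and 20.8% of ADAM12 counts with VP64-MyoD, 22.5% and 22.7% with WT-MyoD, and 23.5% and 23.1% in untreated cells. The share was thus lowest in the 2 VP64-MyoD libraries, over a span of less than 3 percentage points, and both rows fell with each form.

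Per kilobase of transcript, the order of the 10 genes differed between the groups. These levels divide CPM by the count-weighted length of the GENCODE transcripts paired with the rows, which may differ from the lengths the authors counted on. With VP64-MyoD, MYMK came highest, at 246 ± 33 CPM per kb (SD, n = 2), followed by CDH15 at 133 ± 9.1, ADAM12 at 102 ± 0.99, NCAM1 at 95.9 ± 3.0, JAM3 at 88.5 ± 5.2 and CDH2 at 71.2 ± 1.7, and then NEO1, BOC, JAM2 and CDON between 3.20 and 9.96. No neighbours in that order overlapped between libraries. With WT-MyoD, JAM3 came highest, at 93.2 ± 2.1 CPM per kb, before CDH2 at 70.1 ± 2.2 and CDH15 at 63.8 ± 0.00715. NCAM1, MYMK and ADAM12 followed at means between 46.8 and 50.3 and overlapped each other. BOC, NEO1 and CDON lay between 12.4 and 21.3, and JAM2 was lowest at 1.76 ± 0.034. In untreated cells CDH2 came highest, at 213 ± 2.1 CPM per kb, then ADAM12 at 181 ± 0.52 and JAM3 at 32.1 ± 1.4. NEO1, BOC, CDON, NCAM1 and JAM2 lay between 0.496 and 12.7, and MYMK and CDH15, at 0.105 ± 0.0093 and 0.103 ± 0.055, overlapped at the bottom.

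Likeness of pattern was measured as the Euclidean distance over the 6 libraries of log2(CPM + 0.5), centred per gene, among 11222 other genes with a group mean of at least 5 CPM. The 3 genes nearest to MYMK were the perinatal myosin heavy chain MYH8 (distance 0.28), the noncoding RNA H19 (0.35) and the irisin precursor gene FNDC5 (0.35). MYH8 averaged 168 CPM with VP64-MyoD, 34.0 CPM with WT-MyoD and 0.0659 CPM in untreated cells. Nearest to CDH15 were the acetylcholine receptor subunit CHRNA1 (0.36) and the troponins TNNT2 (0.65) and TNNI1 (0.75). CHRNA1 averaged 1136 CPM with VP64-MyoD, 463 CPM with WT-MyoD and 1.51 CPM in untreated cells. Nearest to CDON were LRP4 (0.21), a receptor of the neuromuscular junction, the growth factor signalling inhibitor SPRY1 (0.25) and the aldehyde dehydrogenase ALDH3A2 (0.26). LRP4 averaged 60.3 CPM with VP64-MyoD, 210.3 CPM with WT-MyoD and 44.6 CPM in untreated cells. With 6 libraries in 3 groups, the distances mostly compare 3 group means.

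Partners of the 10 genes were described by 6 lists, none of which holds one of the 10. Against untreated cells, 66.7% to 81% of each list was called with VP64-MyoD, beside 63.6% of all genes tested. With WT-MyoD it was 53.3% to 83.3%, beside 48.5%, and between the forms 50% to 90.5%, beside 57.2%. No list was tested as a set. Of 31 listed genes of the fusion machinery 28 were tested, and MYMX, the other muscle fusion protein, had no row among those used here. With VP64-MyoD, 8 rose and 12 fell against untreated cells. With WT-MyoD, 10 rose and 12 fell, or 7 fell without untreated replicate 2. The median log2 fold changes were -0.08 and -0.01. The membrane repair gene DYSF stood at 187 ± 19 CPM with VP64-MyoD, 65.6 ± 3.8 CPM with WT-MyoD and 2.92 ± 0.38 CPM in untreated cells (SD, n = 2 each). The muscle caveolin gene CAV3 stood at 54.6 ± 3.2 CPM with VP64-MyoD, 34.2 ± 1.2 CPM with WT-MyoD and 0.124 ± 0.11 CPM in untreated cells. ELMO1, part of a complex with DOCK1 that activates Rac, had no count in untreated cells; it stood at 13.5 ± 1.6 CPM with VP64-MyoD, at least 208-fold higher if the untreated group is put at a floor of 3 read pairs in all, and at 2.85 ± 0.087 CPM with WT-MyoD, at least 44.5-fold higher. ARHGAP26 fell by 1.61 with VP64-MyoD and 1.84 with WT-MyoD on the log2 scale. Each of these 4 genes was also higher in VP64-MyoD than in WT-MyoD cells; for ARHGAP26 the difference of 0.23 (edgeR adjusted p = 0.015) was not called without VP64-MyoD replicate 2 (adjusted p = 0.17) or WT-MyoD replicate 1 (adjusted p = 0.10).

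**Figure D4:**
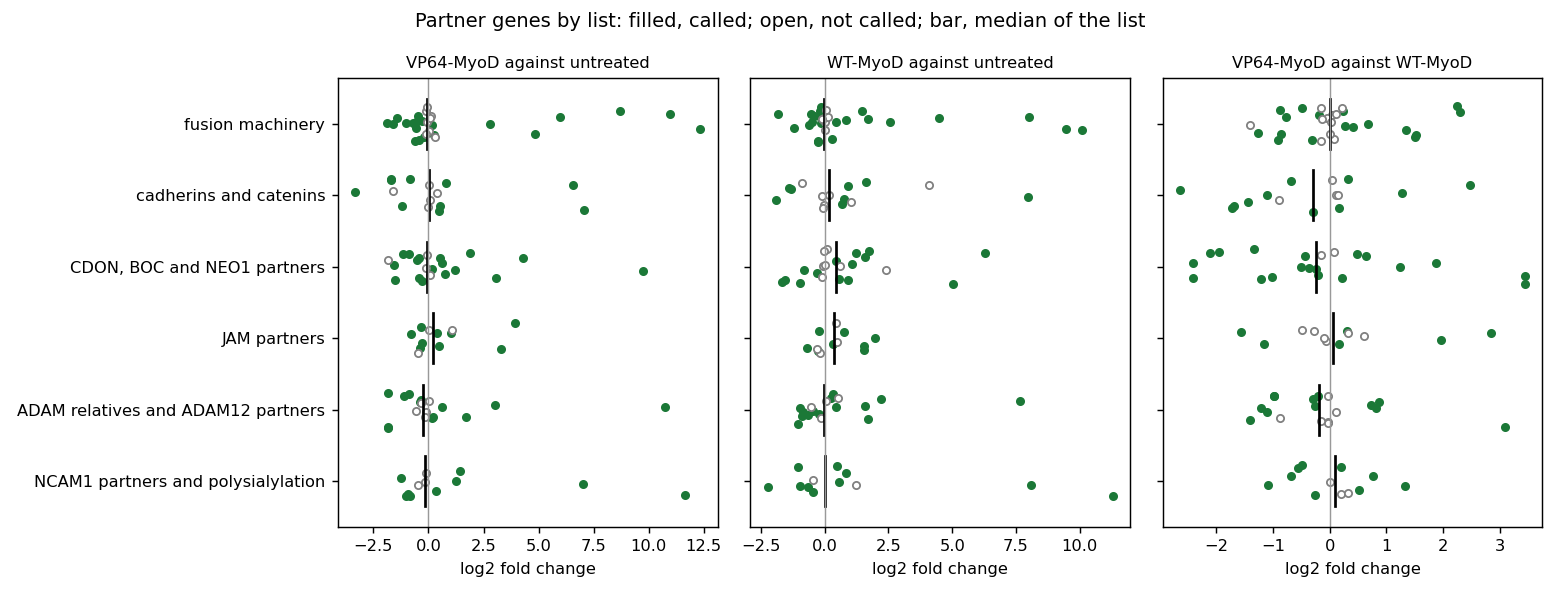
Log2 fold changes of the tested genes of 6 partner lists in the 3 comparisons, with filled points for called and open points for uncalled genes and a bar at the list median. The list medians lie between -0.29 and 0.46, with single genes far to the right of them; for genes with few or no untreated counts the plotted fold depends on the prior count of the fit.

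Of 17 cadherins and catenins 15 were tested. With VP64-MyoD 5 rose, or 3 with a filter of at least 1 CPM in 2 libraries, and 5 fell; with WT-MyoD 5 rose and 3 fell. CDH11, the cadherin of fibroblasts and other mesenchymal cells, stood at 549 ± 4.8 CPM with VP64-MyoD, 508 ± 7.6 CPM with WT-MyoD and 1270.4 ± 52 CPM in untreated cells (SD, n = 2 each). It fell by 1.21 with VP64-MyoD and by 1.32 with WT-MyoD on the log2 scale (SE 0.07 each), as CDH2 did. CDH4, or R-cadherin, fell by 1.70 with VP64-MyoD and 1.40 with WT-MyoD, and the log2 fold changes of CDH6 were -3.33 and -1.90 in the same order. CDH10 fell by 1.71 with VP64-MyoD, and with WT-MyoD its log2 fold change was -0.03 (edgeR adjusted p = 0.87). Not all cadherins of the list fell: CDH13 rose by 0.80 with VP64-MyoD and by 0.75 with WT-MyoD on the log2 scale.

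Among 27 partners of CDON, BOC and NEO1, 21 were tested. The hedgehog ligand genes SHH, IHH and DHH did not pass the filter. With VP64-MyoD 9 rose and 8 fell, and with WT-MyoD 9 rose and 5 fell. GAS1, another hedgehog coreceptor, was likewise highest with WT-MyoD, at 113 ± 2.6 CPM with VP64-MyoD, 261 ± 3.3 CPM with WT-MyoD and 77.7 ± 0.45 CPM in untreated cells (SD, n = 2 each). Other hedgehog pathway genes of the list differed. GLI1 averaged 5.79 CPM with VP64-MyoD, 0.529 CPM with WT-MyoD and 1.57 CPM in untreated cells. PTCH1 fell by 1.13 with VP64-MyoD and by 0.99 with WT-MyoD on the log2 scale, whereas GLI3 was highest with WT-MyoD. RGMB, a ligand of neogenin, stood at 504 ± 18 CPM with VP64-MyoD, 651 ± 31 CPM with WT-MyoD and 216 ± 4.2 CPM in untreated cells. HJV, the hemojuvelin member of the same ligand family, stood at 38.8 ± 1.8 CPM with VP64-MyoD, 3.57 ± 0.074 CPM with WT-MyoD and 0.0457 ± 0.065 CPM in untreated cells, which rests on 0 and 4 untreated counts. UNC5B, a netrin receptor, fell by 0.45 with VP64-MyoD and by 1.68 with WT-MyoD on the log2 scale. Against WT-MyoD, VP64-MyoD had 7 of the 21 higher and 12 lower; the counts were 4 and 7 without VP64-MyoD replicate 1, and 4 were higher without VP64-MyoD replicate 2.

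Of 13 JAM partners 12 were tested; 5 rose and 4 fell with VP64-MyoD, and 5 rose and 3 fell with WT-MyoD. Without either untreated replicate, 1 fell with WT-MyoD. The leukocyte integrin ITGB2 stood at 6.33 ± 0.30 CPM with VP64-MyoD, 18.7 ± 0.64 CPM with WT-MyoD and 11.1 ± 0.22 CPM in untreated cells (SD, n = 2 each). The summed level of 10 blood cell markers ran from 46.8 to 48.5 CPM with VP64-MyoD, 179 to 183 CPM with WT-MyoD and 69.3 to 71.0 CPM in untreated cells, with CD3E, HBB and TYROBP at 0 in all 3 groups, and its part in the ITGB2 level was not tested. Most of that sum was CD68, a lysosomal protein gene, at 44.2 ± 1.3 CPM with VP64-MyoD, 177 ± 2.3 CPM with WT-MyoD and 67.2 ± 1.1 CPM in untreated cells. Between the forms, CD14 was lower in VP64-MyoD cells, as CD68 was, whereas ITGAM and PTPRC were higher. PRKCI, a polarity kinase, fell by 0.39 with VP64-MyoD and 0.69 with WT-MyoD on the log2 scale. IGSF11 stood at 1.36 ± 0.20 CPM with VP64-MyoD, 0.336 ± 0.13 CPM with WT-MyoD and 0.0861 ± 0.0076 CPM in untreated cells, and with WT-MyoD its call (edgeR adjusted p = 0.013) ended without WT-MyoD replicate 1 (adjusted p = 0.14), untreated replicate 1 (0.079) or untreated replicate 2 (0.050).

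All 18 ADAM relatives and partners of ADAM12 were tested; 6 rose and 7 fell with VP64-MyoD, and 7 rose and 7 fell with WT-MyoD. ADAM19, or meltrin beta, moved opposite to ADAM12, at 245 ± 1.7 CPM with VP64-MyoD, 139 ± 11 CPM with WT-MyoD and 29.8 ± 2.6 CPM in untreated cells (SD, n = 2 each). It rose by 3.04 with VP64-MyoD (SE 0.08, edgeR adjusted p = 1.8e-14) and 2.22 with WT-MyoD (SE 0.08, edgeR adjusted p = 1.1e-12) on the log2 scale. ADAM33 fell by 1.86 with VP64-MyoD and 0.65 with WT-MyoD, and SDC4, a syndecan that binds ADAM12, by 1.82 and 0.83 in the same order. ACTN2, a muscle actinin that binds the tail of ADAM12, stood at 298 ± 30 CPM with VP64-MyoD, 35.05 ± 0.83 CPM with WT-MyoD and 0.170 ± 0.046 CPM in untreated cells.

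Of 13 NCAM1 partners 12 were tested; 5 rose and 4 fell with VP64-MyoD, and 5 rose and 5 fell with WT-MyoD. ST8SIA2, an enzyme that adds polysialic acid to NCAM, had no count in untreated cells. It stood at 8.19 ± 0.93 CPM with VP64-MyoD (SD, n = 2), at least 128-fold higher, and at 6.50 ± 0.75 CPM with WT-MyoD, at least 102-fold higher. L1CAM, another immunoglobulin-family adhesion molecule, stood at 22.2 ± 1.3 CPM with VP64-MyoD, 47.2 ± 4.7 CPM with WT-MyoD and 0.164 ± 0.17 CPM in untreated cells. NRCAM fell by 0.91 on the log2 scale with VP64-MyoD and fell by 2.24 with WT-MyoD. FGFR1, a growth factor receptor that NCAM binds, fell by 1.02 with VP64-MyoD and 0.45 with WT-MyoD.

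Between the forms, VP64-MyoD over WT-MyoD, the fusion machinery list had 9 higher and 8 lower of 28, the JAM partners 4 higher and 2 lower of 12, the ADAM list 4 higher and 8 lower of 18, and the NCAM1 list 4 higher and 5 lower of 12. The cadherins and catenins had 4 higher and 7 lower of 15; the 4 became 1 without either VP64-MyoD replicate and 2 without either untreated replicate, and the 4 JAM partners became 2 without VP64-MyoD replicate 1. With the most abundant transcript row alone, both counts became 2.

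The authors' deposited table lists 15 of the 22 transcript rows, from 7 of the 10 genes; it has no row of CDON, BOC or NEO1. For MYMK, the authors' deposited table gave 11.19 on the log2 scale for VP64-MyoD and 8.83 for WT-MyoD over untreated, and for CDH2 -1.58 and -1.60. Among NCAM1 rows, the authors' deposited table gave log2 fold changes from 4.74 to 5.87 with VP64-MyoD and from 3.91 to 4.67 with WT-MyoD. By the authors' deposited table, the long-form and short-form rows of ADAM12 stood at -0.75 and -0.97 with VP64-MyoD and at -1.93 and -1.98 with WT-MyoD.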

How the data were processed

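The authors deposited raw counts, as whole numbers, by RefSeq transcript for the 6 libraries. CASAVA, Bowtie 0.12.9, DESeq 1.10.1 and the build hg19 are named in the submitters' processing notes. The authors' deposited table of log2 fold changes, over 3135 transcripts, was read for signs and sizes and entered no test. The library preparation (transposase tagmentation, per the labels' protocols) does not mark the strand. Of 40710 rows, 39324 were matched to symbols by accession in a RefSeq table of GRCh38.p14 and 517 through GENCODE 29; 868 without a symbol, holding 0.601% to 0.744% of counts, were left out. For genes with a pair of near-equal rows, the chi-square of row by replicate averaged 0.973 to 0.995 per degree of freedom, as for reads placed on 1 row each, so rows were summed.

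The test was that of edgeR 4.0.16, run in R 4.3.3 (TMM, filterByExpr with minimum count 10 and minimum total 15, quasi-likelihood, two-sided, adjusted over 15289 genes), with the 6 libraries in 1 fit and 3 residual degrees of freedom, and the procedure was tested on simulated data. Estimates of spread were moderated across genes, which brought the total to 13.0 degrees of freedom, the value used for the intervals of the fit. Each SE was obtained by dividing the size of the log2 fold change by the root of its F statistic. Replicates differed by more than counting noise, with chi-square values, per degree of freedom, of 6.01 with VP64-MyoD, 13.8 with WT-MyoD and 3.49 in untreated cells. Floors and the binomial and Wilson intervals cover counting error only, at the 95% level. The 95% intervals of CDH2 and JAM3 between the forms come from the fit and include the spread between replicates.

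Alternatives were RLE factors, 2 other filters, DESeq2 1.42.0, limma-voom 3.58.1, a replicate block, fits of 2 groups alone, halved counts, the most abundant row alone and leaving out each library. The members and lists were chosen with earlier results of these data known. Named were all members, up to 4 genes of each partner list with the smallest adjusted p and a mean count of at least 20, and the 3 nearest patterns of MYMK, CDH15 and CDON. CDH13, GLI1, PTCH1 and GLI3 were added outside this rule to show other directions within their lists. A gene that this rule names among the JAM partners is not reported here.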

Additional observations from a re-analysis of the deposited data

Results flagged for a closer look

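BOC and NEO1 were called in opposite directions by the 2 forms against untreated cells, lower with VP64-MyoD and higher with WT-MyoD, and the difference between the forms was itself called. The pattern is not particular to them, since ITGB2, CD68 and EMCN were called in the same opposite directions. The share of all tested genes called that way was not counted. BOC differed by -1.18 on the log2 scale for VP64-MyoD against WT-MyoD (edgeR adjusted p = 8.2e-10), and NEO1 by -0.76 (edgeR adjusted p = 5.0e-07); in both genes the 2 VP64-MyoD libraries lay under the 2 untreated libraries and the 2 WT-MyoD libraries above them. The amount of transgene differed between the forms as well, so form and amount cannot be told apart.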

How the results depend on the processing

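Each of the 15 alternatives left the counts of called members the same: 6 higher and 4 lower with VP64-MyoD, 8 higher and 2 lower with WT-MyoD, and 5 higher and 3 lower between the forms. Of 450 recomputed member fold changes, 448 kept direction and side of the threshold; the uncalled CDH2 difference between the forms became -0.00285 without VP64-MyoD replicate 1 and -0.0102 without WT-MyoD replicate 1, and with other libraries left out it reached 0.0459. The uncalled CDH10 change with WT-MyoD became 0.00856 without WT-MyoD replicate 1 and 0.00629 without untreated replicate 2, and with other libraries left out it reached -0.0545. Leaving out 1 library leaves a group with a lone sample, assumed to vary like the other groups. Counts of called partner genes moved by over 1.5 times in some settings, and the cause was not tested. Cadherins and catenins higher with VP64-MyoD than in untreated cells numbered 3 in place of 5 with a filter of at least 1 CPM in 2 libraries. Those higher in VP64-MyoD than in WT-MyoD cells numbered 2 in place of 4 with the most abundant transcript row alone, 1 with the replicate number as a block, and ranged from 1 to 4 without 1 library; JAM partners in that comparison numbered 2 in place of 4 with the most abundant row alone and ranged from 2 to 4 without 1 library. Also without 1 library, partners of CDON, BOC and NEO1 ranged from 4 to 7 higher and 7 to 11 lower in VP64-MyoD than in WT-MyoD cells, and WT-MyoD against untreated gave 7 to 12 lower fusion genes and 1 to 3 lower JAM partners. The replicate numbers did not pair the samples (correlations of deviations -0.030, 0.00049 and 0.066), and the block changed no member's call. Depth limits MYMK and CDH15 in untreated cells, at 4 and 14 read pairs.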
